A study of Mus musculus with 14 samples.

Results

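The Pax, Sox, Lhx, Irx, Dlx and Msx genes and the family of Six2 are 7 families of transcription factors. All genes of the count table whose symbol is one of these family names followed by a number were taken, which gave 57 of 49315 genes: 19 Sox, 9 Pax, 8 Lhx, 6 Irx, 6 Dlx, 3 Msx and 6 genes of the Six2 family. They were followed in whole hearts of male wild-type C57BL/6 mice on standard chow, aged 12 or 68 weeks, with no other allele or treatment in either group. RNA-seq gave 4 libraries per age from about 10 mg of pulverised tissue each. CUT&RUN, in which an antibody directs a nuclease to cut out the DNA it is bound to, gave 2 libraries per age for the histone mark H3K27me3, from 5 mg of tissue powder, and 1 input library per age.

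Pax, Lhx, Irx, Dlx, Msx and Six2-type proteins bind DNA through a homeodomain or, in Pax, a paired domain, and Sox proteins bind it through an HMG box. The families set positional identity and cell fate in the embryo, and in adult tissue most of their genes are silent outside a few cell types. Silent copies are classic targets of Polycomb repressive complex PRC2, which deposits H3K27me3 over CpG-rich promoters. In the heart, Irx genes act in the ventricular and conduction myocardium, Sox7, Sox17 and Sox18 in endothelium, Sox9 in valves and fibroblasts, and Sox10 in Schwann cells of nerves.

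Most of the genes have CpG-rich starts, a feature that the choice of genes did not use. Of the 57 genes, 40 had a RefSeq promoter (GRCm38.p6), taken as the 250 bases before to the 50 bases after the start. These promoters held a median of 21 CpG dinucleotides, ranging from 3 to 47, against a median of 12 over 19651 genes. At least 10 CpGs were present in 87.5% of the 40 and in 54.0% of all. For 7 of the 40 the RefSeq start lay over 1 kb from the gene's start in the count tables, farthest for Sox5, the lowest of the set, at 835 kb inside the gene. In the other 33 the median was 22 CpGs, against 14 over the 16896 genes with a start as near. Among genes too low to test in these hearts the contrast was wider, with a median of 20 CpGs in 19 family genes and of 3 in all 8211 such genes, the 19 included. Among tested genes the medians were closer, 22 in 21 family genes and 20 in all 11440. Family genes linked to a listed H3K27me3 region did not hold more CpGs than the others. The median was 17.5 at 12 weeks, where 8 of the 16 linked genes had a promoter, and 19 in the 6 linked at 68 weeks. It was 22 in the 29 with a promoter that were linked in neither list. The promoters below show the most and the fewest CpGs among tested genes with a start within 1 kb (Sox12 and Sox6), the gene whose RNA changed (Pax5), and genes with several H3K27me3 regions (Lhx6, Pax2 and Pax7). Each runs 5′ to 3′ along the gene with every CpG in capitals.
Sox12: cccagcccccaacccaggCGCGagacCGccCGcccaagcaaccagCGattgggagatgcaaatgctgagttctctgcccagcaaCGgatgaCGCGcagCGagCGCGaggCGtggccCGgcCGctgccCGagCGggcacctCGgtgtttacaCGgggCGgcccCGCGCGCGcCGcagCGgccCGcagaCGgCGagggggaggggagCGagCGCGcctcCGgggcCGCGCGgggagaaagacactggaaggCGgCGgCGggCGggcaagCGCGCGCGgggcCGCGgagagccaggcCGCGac
Sox6: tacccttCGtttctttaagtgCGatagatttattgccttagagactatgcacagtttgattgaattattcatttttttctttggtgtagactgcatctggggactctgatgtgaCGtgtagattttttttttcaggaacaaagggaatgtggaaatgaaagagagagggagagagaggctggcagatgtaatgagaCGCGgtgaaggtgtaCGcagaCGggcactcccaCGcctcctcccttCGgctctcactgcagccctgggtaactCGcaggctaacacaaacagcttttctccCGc
Pax5: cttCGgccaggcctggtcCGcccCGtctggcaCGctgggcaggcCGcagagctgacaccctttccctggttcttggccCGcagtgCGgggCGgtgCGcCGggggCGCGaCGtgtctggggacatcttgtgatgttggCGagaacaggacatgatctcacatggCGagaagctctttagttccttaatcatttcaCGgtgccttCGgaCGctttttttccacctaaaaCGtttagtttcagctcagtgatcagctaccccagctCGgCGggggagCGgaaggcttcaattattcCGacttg
Lhx6: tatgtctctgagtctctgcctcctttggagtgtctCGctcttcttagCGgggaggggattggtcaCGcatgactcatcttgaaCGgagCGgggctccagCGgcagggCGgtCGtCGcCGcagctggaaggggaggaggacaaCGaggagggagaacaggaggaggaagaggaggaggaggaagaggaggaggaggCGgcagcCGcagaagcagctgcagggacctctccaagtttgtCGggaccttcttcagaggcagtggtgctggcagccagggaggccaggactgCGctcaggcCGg
Pax2: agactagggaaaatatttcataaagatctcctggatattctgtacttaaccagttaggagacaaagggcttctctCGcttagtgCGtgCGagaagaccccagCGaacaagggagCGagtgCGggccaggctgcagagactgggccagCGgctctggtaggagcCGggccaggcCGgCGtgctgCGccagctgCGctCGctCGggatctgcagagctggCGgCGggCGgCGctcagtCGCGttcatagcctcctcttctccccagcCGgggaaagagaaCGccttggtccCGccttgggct
Pax7: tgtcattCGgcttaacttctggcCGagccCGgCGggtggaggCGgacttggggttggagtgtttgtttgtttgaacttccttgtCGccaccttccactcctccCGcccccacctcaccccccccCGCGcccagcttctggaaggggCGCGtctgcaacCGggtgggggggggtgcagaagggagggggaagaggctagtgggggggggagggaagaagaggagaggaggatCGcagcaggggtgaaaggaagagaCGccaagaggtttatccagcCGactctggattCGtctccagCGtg
The Sox12 promoter (chr2:152397997-152398296, minus strand) held 47 CpGs and was 76.7% G or C, and the Sox6 promoter (chr7:116038695-116038994, minus strand) held 11 and was 47.0% G or C. The Pax5 (chr4:44710645-44710944, minus strand) and Pax2 (chr19:44755502-44755801, plus strand) promoters each held 23. Lhx6 (chr2:36105359-36105658, minus strand) had 16 and Pax7 (chr4:139832919-139833218, minus strand) had 17. Short words were also searched on both strands. The SOX-type word AACAAT was in 0 of the 40 promoters and in 9.66% of all, ACAAAG in 6 of the 40 and in 17.3% of all, and the TATA-box word TATAAA in 2 of the 40 and in 13.0% of all. These are letter matches within 300 bases and say nothing about binding.

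The RNA libraries held 23599296 to 31662601 counts at 12 weeks and 28842059 to 34599121 at 68 weeks, with 7.41% to 12.1% of them from mitochondrial genes. Cardiomyocyte markers were abundant in every library (36700 to 42300 CPM, counts scaled to library size, summed over 6 genes). Airway epithelium transcripts separated the libraries: 20 markers summed to 1780, 942, 549 and 32.9 CPM of total counts in replicates 1 to 4 at 12 weeks and to 3.86, 3.61, 1040 and 2.77 CPM at 68 weeks. The airway-rich libraries were thus 3 of 4 at 12 weeks and 1 of 4 at 68 weeks, so values with the airway sum in the model are given beside several of the results. Sums of 6 brown fat markers were 678 to 1050 CPM at 12 weeks and 531 to 606 CPM at 68 weeks. Most of each sum was 1 gene, Cox7a1, with means of 573 and 498 CPM. Ucp1 measured 103, 64.2, 117 and 368 CPM at 12 weeks and 14.7, 40.5, 55.0 and 0.893 CPM at 68 weeks. Fibroblast (757 to 811, then 619 to 742 CPM) and skeletal muscle sums (2.2 to 2.75, then 1.13 to 1.92 CPM) were also lower at 68 weeks without overlap. The fibroblast genes were mixed, with a median log2 fold change of -0.05. Means were lower for Col1a1 (278, then 167 CPM), Pdgfra (67.6, then 56.6) and Tcf21 (7.44, then 7.2). They were higher for Dcn (384, then 404) and Lum (53.4, then 67.3). Most of the skeletal muscle sum was Tnni2 (means 1.71, then 0.966 CPM). The part of these tissues in the results was not tested. Nothing in the labels ties each library to a mouse of its own, so a p-value here sets age against the variation among 4 libraries, which may be technical.

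Of the 57 genes, 29 (50.9%) passed the filter on low counts, against 32.3% of all genes and 8 of 39 Hox genes (20.5%). By family, 14 of 19 Sox, 5 of 6 Irx, 2 of 3 Msx, 3 of 9 Pax, 1 of 8 Lhx and 0 of 6 Dlx genes passed, and 4 of the 6 genes of the Six2 family. The other 28 never exceeded 17 counts in a library (Sox11), and 19 of them had fewer than 10 counts over all 8. Pax4, Pax8, Lhx5, Sox1 and Sox14 had no count at all, which allows up to 3 counts in 235353997, or 0.0127 CPM, for counting error alone.

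**Figure D1:**
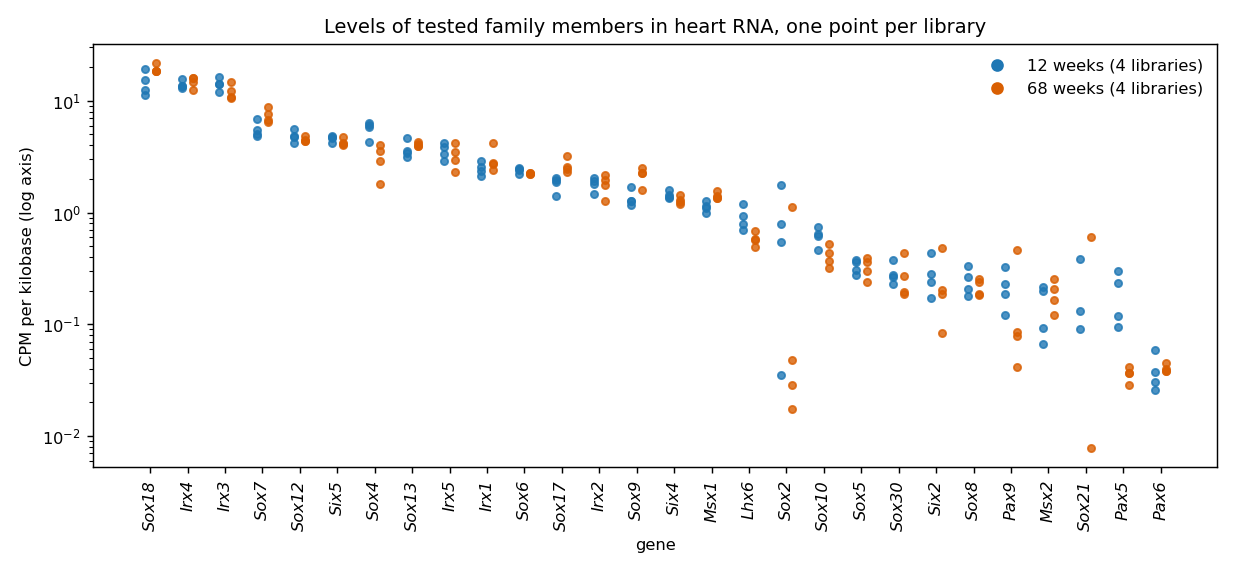
Level of the tested family genes in CPM per kilobase of gene length (log axis), one point per library, with 4 libraries at 12 weeks in blue and 4 at 68 weeks in orange; libraries at 0 are not drawn. Sox18, Irx4 and Irx3 lead, and the points of Sox2 and Sox21 spread the most within an age.

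Per kilobase, the highest levels belonged to the endothelial factor Sox18 and to the Iroquois genes Irx4 and Irx3, with means over the 8 libraries of 17.0, 14.4 and 13.1 CPM per kilobase. Below them, in order, were Sox7 (6.47), Sox12 (4.66), Six5 (4.43), Sox4 (4.34), Sox13 (3.89), Irx5 (3.40), Irx1 (2.75), Sox6 (2.32) and Sox17 (2.22). Levels of at least 0.1 CPM per kilobase were reached by 28 genes and of at least 1 by 16. Neighbours such as Sox12, Six5 and Sox4 lay closer together than the libraries of Sox4 did. Pax5 (0.111) and Pax6 (0.0394) were at the low end.

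A single family gene changed with age at an edgeR adjusted p below 0.05, and it fell: Pax5, 1 of 29 tested. Over all 15947 tested genes 2.83% were called, so the share among the families, 3.45%, was near the background. By direction the background was 1.61% higher and 1.22% lower. At an unadjusted p under 0.05 there were 9 of 29 (31.0%), against 19.0% of all genes, with 5 on the higher and 4 on the lower side. The libraries of the ages did not overlap for 5 genes (17.2%), 2 higher and 3 lower, against 12.1% of all genes, 6.26% higher and 5.86% lower. The median log2 fold change (68 over 12 weeks) was -0.08 over the 29 genes and -0.01 over all tested genes, with 11 of 29 above 0. The direction of that summary turned with the airway sum in the model, to 0.10 and 17 of 29 above 0, and among the 4 airway-richest libraries, to 0.07 and 17 of 29. DESeq2 called 6 of the 30 family genes it tested, with Sox7, Sox9 and Sox17 higher and Pax5, Sox4 and Lhx6 lower. That share was above the 5.93% over all genes it tested, 3.34% higher and 2.58% lower.

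**Figure D2:**
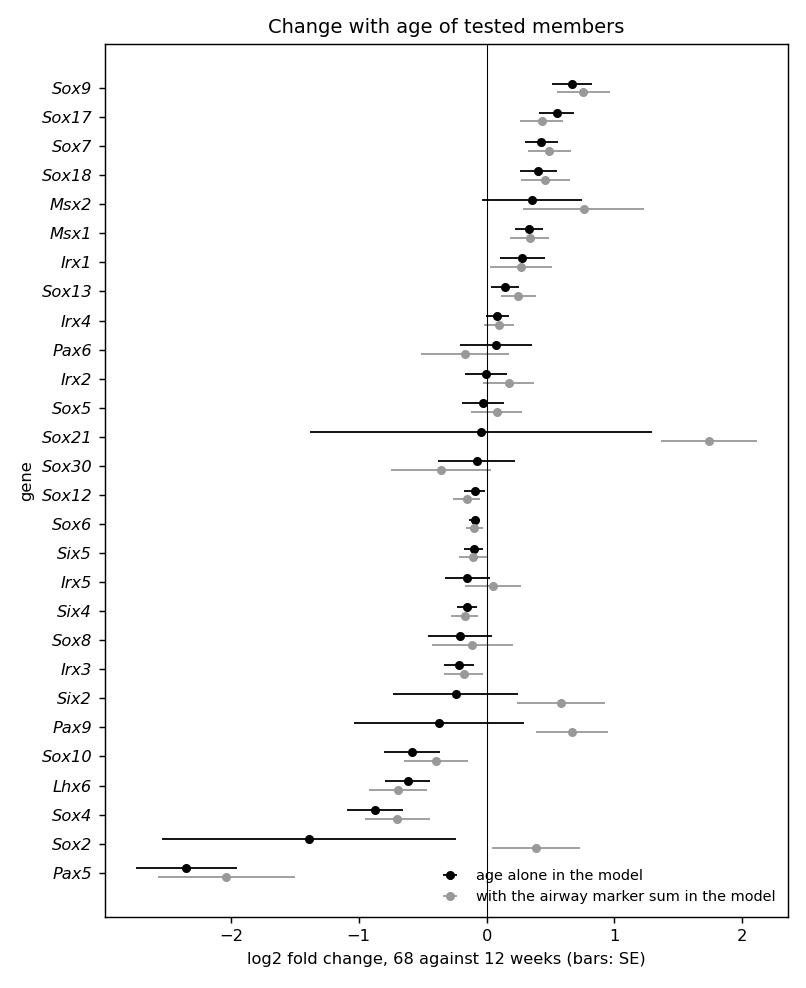
Log2 fold change of the tested family genes, 68 against 12 weeks, with SE bars, from the model with age alone (black) and with the airway marker sum added (grey). Pax5 lies farthest below 0 at -2.35, and Sox2, Sox21, Pax9 and Six2 cross to the higher side in the grey fit.

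Pax5 (chr4:44524757-44710487, minus strand, mm10) encodes the factor that commits cells to the B lineage. Its level was 1.06, 2.08, 2.63 and 0.83 CPM at 12 weeks and 0.364, 0.252, 0.322 and 0.327 CPM at 68 weeks. All 4 older libraries lay below all younger ones and close together, while the younger ones were spread more widely. The mean was 1.65 ± 0.848 CPM at 12 weeks and 0.317 ± 0.0467 CPM at 68 weeks (SD, n = 4 each), a log2 fold change of -2.35 ± 0.39 (SE, edgeR adjusted p = 0.0181). In bulk tissue fewer cells of a type and less RNA per cell cannot be told apart. The 8 B cell markers, all tested, summed to 7.6, 11.4, 14.4 and 5.27 CPM at 12 weeks and to 3.75 to 4.93 CPM at 68 weeks, with a median log2 fold change of -1.67 and none at 0. Of the 8, 2 fell, Cd79a and Cd79b, parts of the B cell receptor (log2 fold changes -2.17 and -1.96, edgeR adjusted p = 0.0287 and 0.0412). The part of B cell content in the Pax5 result was not tested. With the airway sum as a covariate Pax5 had a log2 fold change of -2.04 (edgeR adjusted p = 0.198). Among the 4 airway-poorest libraries, 1 at 12 and 3 at 68 weeks, it had -1.38 (edgeR adjusted p = 0.366). The call was also lost without 12-week replicate 2 (edgeR adjusted p = 0.05002), 68-week replicate 2 (0.0547) or 68-week replicate 4 (0.0612).

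**Figure D3:**
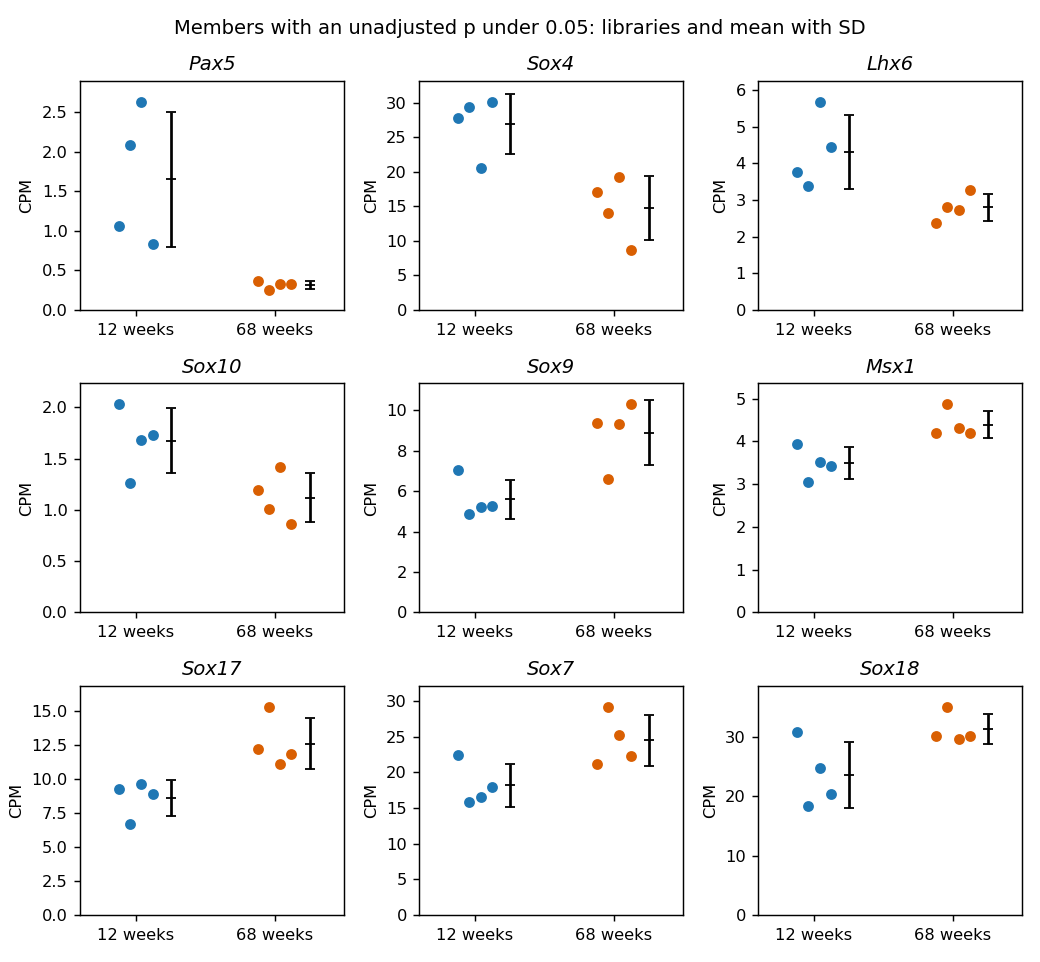
CPM per library (points) and mean with SD (bars) for the 9 family genes with an unadjusted p under 0.05; 12 weeks in blue, 68 weeks in orange, each axis from 0. Only Pax5 passed the adjusted test, and the ages do not overlap for Pax5, Sox4, Lhx6, Msx1 and Sox17.

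The endothelial trio Sox17, Sox7 and Sox18, which share functions in vessel formation and arterial identity, all had higher means at 68 weeks without passing the adjusted test. Sox17 (chr1:4490931-4497354, minus strand, mm10) measured 9.28, 6.68, 9.64 and 8.88 CPM at 12 weeks and 12.2, 15.3, 11.1 and 11.8 CPM at 68 weeks. Every older library exceeded every younger one, with a log2 fold change of 0.55 ± 0.13 (SE, edgeR adjusted p = 0.066). Sox7 (chr14:63943674-63950732, plus strand, mm10) measured 22.5, 15.8, 16.5 and 17.9 CPM at 12 weeks and 21.2, 29.2, 25.3 and 22.3 CPM at 68 weeks. The younger replicate 1 reached into the older range, and the test gave a log2 fold change of 0.43 ± 0.13 (SE, edgeR adjusted p = 0.115). Sox18 (chr2:181669836-181671640, minus strand, mm10) measured 30.9, 18.4, 24.8 and 20.4 CPM at 12 weeks and 30.2, 35.1, 29.7 and 30.2 CPM at 68 weeks. Its younger replicate 1 lay among the older libraries, and the test gave a log2 fold change of 0.41 ± 0.14 (SE, edgeR adjusted p = 0.169). Without that library Sox18 had a log2 fold change of 0.57 (edgeR adjusted p = 0.0477). With any other single library left out it did not pass (edgeR adjusted p up to 0.319). Of 8 endothelial markers tested 0 were called, and they summed to 919 to 1120 CPM at 12 weeks and 888 to 1070 CPM at 68 weeks. Their median log2 fold change was -0.07. With the airway sum as a covariate Sox17 had 0.43 (edgeR adjusted p = 0.404). An antisense gene model, Gm37587, shares 16.8% of the exonic bases of Sox17 and held 28 counts against 2506, and the sources used here do not say whether counting used strand.

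Sox9 (chr11:112782224-112787760, plus strand, mm10), a driver of cartilage and valve matrix genes, measured 7.04, 4.85, 5.21 and 5.27 CPM at 12 weeks and 9.37, 6.6, 9.35 and 10.3 CPM at 68 weeks. Older replicate 2 lay inside the younger range and the other 3 lay above it, with a log2 fold change of 0.67 ± 0.16 (SE, edgeR adjusted p = 0.059). Sox9 passed the adjusted test without 12-week replicate 1 (log2 fold change 0.81, edgeR adjusted p = 0.0477) and without 68-week replicate 2 (0.79, edgeR adjusted p = 0.0368). These are the libraries through which the ages overlapped. With any other single library left out it did not pass (edgeR adjusted p up to 0.157). With the airway sum as a covariate it had 0.76 (edgeR adjusted p = 0.206). Of the 6 tested cartilage markers 1 rose, Cnmd, which encodes chondromodulin (log2 fold change 1.28, edgeR adjusted p = 0.012). The other 5 did not pass, with Comp at 0.67, Hapln1 at -0.22, Col9a2 at -1.01, Acan at -1.75 and Col2a1 at -2.62, and the list's median was -0.62. The 8 cartilage markers summed to 15.2 to 29.4 CPM at 12 weeks and 19.5 to 30.4 CPM at 68 weeks, and their part in the Sox9 values was not tested. Msx1 (chr5:37820485-37824583, minus strand, mm10), a homeobox gene of valve and limb mesenchyme, measured 3.95, 3.05, 3.53 and 3.43 CPM at 12 weeks and 4.21, 4.87, 4.32 and 4.19 CPM at 68 weeks. The ages did not overlap, by a small margin, with a log2 fold change of 0.33 ± 0.11 (SE, edgeR adjusted p = 0.146).

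On the lower side, Sox4 (chr13:28948919-28953713, minus strand, mm10), a SoxC factor of progenitor cells, measured 27.7, 29.3, 20.6 and 30.1 CPM at 12 weeks and 17.1, 14.0, 19.3 and 8.63 CPM at 68 weeks. Every older library lay below every younger one, with a log2 fold change of -0.87 ± 0.22 (SE, edgeR adjusted p = 0.0691). Of the exonic bases of Sox4, 54.6% are shared with an antisense model, Gm26735, which held 1 count against 4858. Lhx6 (chr2:36081953-36105408, minus strand, mm10), a LIM-homeobox gene best known from interneurons and craniofacial mesenchyme, measured 3.77, 3.38, 5.68 and 4.44 CPM at 12 weeks and 2.38, 2.81, 2.74 and 3.27 CPM at 68 weeks. The ages were again apart, by a small margin, with a log2 fold change of -0.62 ± 0.18 (SE, edgeR adjusted p = 0.0973). Sox10 (chr15:79154913-79164490, minus strand, mm10), a Schwann cell regulator shown here because its unadjusted p was under 0.05, measured 2.03, 1.26, 1.68 and 1.73 CPM at 12 weeks and 1.19, 1.01, 1.42 and 0.863 CPM at 68 weeks. A library of each age lay within the range of the other age, and the test gave a log2 fold change of -0.58 ± 0.22 (SE, edgeR adjusted p = 0.187). The 9 Schwann cell markers summed to 99.9 to 119 CPM at 12 weeks and 93.3 to 106 CPM at 68 weeks, with a median log2 fold change of -0.55 and 0 called, and their part in the Sox10 values was not tested. With the airway sum as a covariate the values were -0.70 for Sox4 (edgeR adjusted p = 0.357), -0.69 for Lhx6 (0.306) and -0.39 for Sox10 (0.641).

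Sox2, Sox21, Pax9 and Six2, low genes shown because their libraries followed the airway transcripts, were chosen after their values were seen. Sox2, a factor of airway basal and secretory cells, measured 3.65, 1.62, 1.12 and 0.0722 CPM at 12 weeks and 0.0993, 0.036, 2.29 and 0.0595 CPM at 68 weeks. Sox21, its SoxB relative, measured 1.47, 0.503, 0.344 and 0.0 CPM at 12 weeks and 0.0, 0.0, 2.29 and 0.0298 CPM at 68 weeks. Both were highest in 12-week replicate 1 or 68-week replicate 3 and near 0 in the 4 libraries poor in airway transcripts. Pax9, of pharyngeal and oesophageal epithelium, measured 1.65, 1.15, 0.947 and 0.614 CPM at 12 weeks and 0.397, 0.433, 2.35 and 0.208 CPM at 68 weeks. Six2, of kidney and craniofacial progenitors, measured 0.913, 0.503, 0.603 and 0.361 CPM at 12 weeks and 0.43, 0.397, 1.03 and 0.179 CPM at 68 weeks. In all 4 genes 68-week replicate 3 stood above the other older libraries. In edgeR none passed, and the log2 fold changes were -1.39 ± 1.15, -0.04 ± 1.335, -0.37 ± 0.67 and -0.24 ± 0.49 (SE). When 68-week replicate 3 was left out, Sox2 had -4.56 (edgeR adjusted p = 0.0793) and Pax9 had -1.67 (0.073). The part of airway tissue in these values was not tested. With the airway sum in the model all 4 turned to the higher side. The values were 0.38 ± 0.34 for Sox2, 1.74 ± 0.38 for Sox21, 0.67 ± 0.28 for Pax9 and 0.58 ± 0.35 for Six2 (SE). A shift in that fit follows from choosing genes whose libraries followed the airway transcripts.

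**Figure D4:**
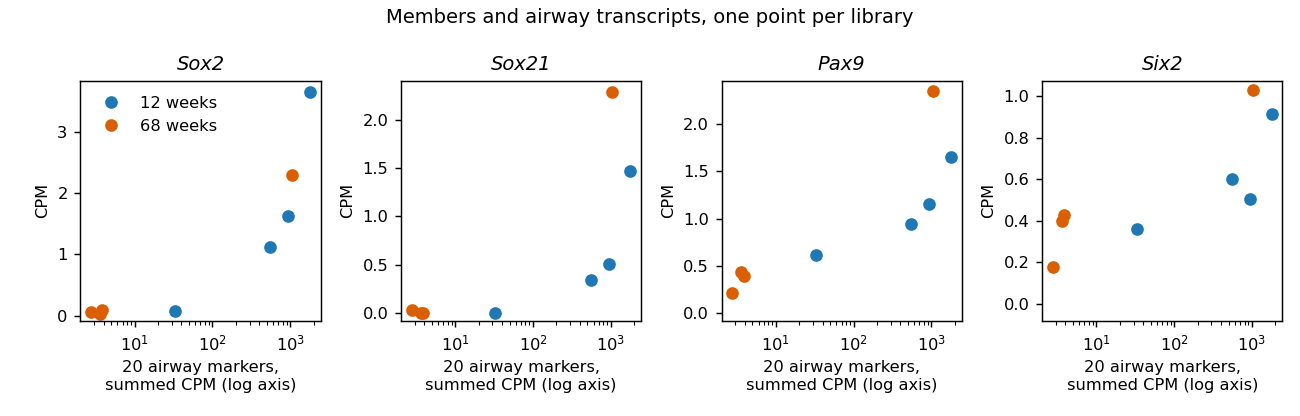
CPM of Sox2, Sox21, Pax9 and Six2 against the summed CPM of 20 airway markers (log axis), one point per library, 12 weeks in blue and 68 weeks in orange. The single orange point at the right of each panel is 68-week replicate 3, with 1040 CPM of airway markers.

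The 5 tested Iroquois genes gave overlapping libraries at the 2 ages. Irx4, which sets ventricular identity, measured 35.1, 41.1, 34.2 and 35.0 CPM at 12 weeks and 32.3, 41.9, 38.4 and 41.4 CPM at 68 weeks. Irx3, a regulator of fast conduction in the His-Purkinje system, measured 44.7, 39.1, 32.8 and 39.0 CPM at 12 weeks and 30.1, 40.5, 34.0 and 29.5 CPM at 68 weeks. The ages overlapped widely in both, with a log2 fold change of 0.082 ± 0.09 (SE, edgeR adjusted p = 0.666) for Irx4 and a log2 fold change of -0.22 ± 0.12 (SE, edgeR adjusted p = 0.347) for Irx3. Irx5, which shapes the repolarisation gradient, measured 13.2, 12.0, 10.5 and 8.99 CPM at 12 weeks and 9.17, 13.0, 10.9 and 7.26 CPM at 68 weeks. Irx1 measured 5.6, 6.07, 6.93 and 5.02 CPM at 12 weeks and 6.39, 10.0, 6.54 and 5.71 CPM at 68 weeks, and its highest library was 68-week replicate 2. Neither passed the test, with log2 fold changes of -0.15 ± 0.18 for Irx5 and 0.28 ± 0.18 for Irx1 (SE), and Irx2 stood at -0.01 ± 0.16. The signs of Irx5 and Irx2 turned with the airway sum in the model (0.048 and 0.17).

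Other expressed genes did not pass, and their libraries overlapped between the ages. Sox6, a SoxD factor of muscle fibre type, measured 36.2, 33.1, 36.9 and 35.9 CPM at 12 weeks and 33.0, 32.8, 33.6 and 33.8 CPM at 68 weeks. The highest library was a younger one, with a log2 fold change of -0.094 ± 0.045 (SE, edgeR adjusted p = 0.295). Sox12, a SoxC gene, measured 21.5, 21.0, 18.5 and 24.7 CPM at 12 weeks and 19.6, 21.4, 19.9 and 19.4 CPM at 68 weeks. Sox13, a SoxD gene, measured 19.9, 13.6, 15.4 and 14.7 CPM at 12 weeks and 17.0, 17.8, 18.5 and 17.0 CPM at 68 weeks. Younger replicate 1 was the highest of all 8 for Sox13, with a log2 fold change of 0.14 ± 0.11 (SE), and Sox12 had -0.09 ± 0.08. Six5, which lies beside the myotonic dystrophy gene Dmpk, measured 14.5, 14.3, 12.6 and 13.9 CPM at 12 weeks and 14.4, 12.0, 12.6 and 12.4 CPM at 68 weeks. Pax6, the eye and islet regulator, measured 0.442, 0.359, 0.301 and 0.686 CPM at 12 weeks and 0.53, 0.469, 0.451 and 0.446 CPM at 68 weeks. Their log2 fold changes were -0.10 ± 0.08 for Six5 and 0.07 ± 0.28 for Pax6 (SE), and Pax6 had -0.17 with the airway sum in the model. Six4 (-0.15), Sox5 (-0.03, or 0.078 with the airway sum), Sox8 (-0.21), Sox30 (-0.08) and Msx2 (0.35) did not pass either.

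Genes that encode partner proteins of the families did not pass the test at the RNA level either. Of the EYA and DACH cofactors of Six2 and its relatives 5 of 6 were tested, of the LIM-domain partners of Lhx proteins 5 of 8, and of the Groucho corepressors, which several of these families recruit, 6 of 6. None of these was called by edgeR or DESeq2, and their median log2 fold changes were -0.07, -0.04 and 0.09. The smallest p-values belonged to Eya3 (0.07 ± 0.04, SE) and Dach1 (0.16 ± 0.12), to Lmo1 (0.33 ± 0.15) and Lmo2 (-0.10 ± 0.10), and to Aes (0.08 ± 0.05) and Tle4 (0.09 ± 0.06). Of these, Lmo1 alone had an unadjusted p under 0.05 in edgeR (adjusted p = 0.261).

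The deposited H3K27me3 lists name the family genes more often at 12 weeks than at 68 weeks. Each list holds regions that the authors call unique to its age, with linked genes and a score that they call enrichment, 1164 regions at 12 weeks and 3433 at 68 weeks. At 12 weeks 16 of the 57 genes (28.1%) were linked to a region, against 1.06% of all genes. At 68 weeks 6 (10.5%) were linked, against 2.4% of all genes. The families made up 2.91% of the 549 genes linked at 12 weeks and 0.471% of the 1274 linked at 68 weeks. Hox genes, a homeobox group outside these families, stood at 8 of 39 (20.5%) and 0 of 39. The lists carry no value per library, so neither difference could be tested, and a region missing from a list may be marked at both ages or at neither.

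**Figure D5:**
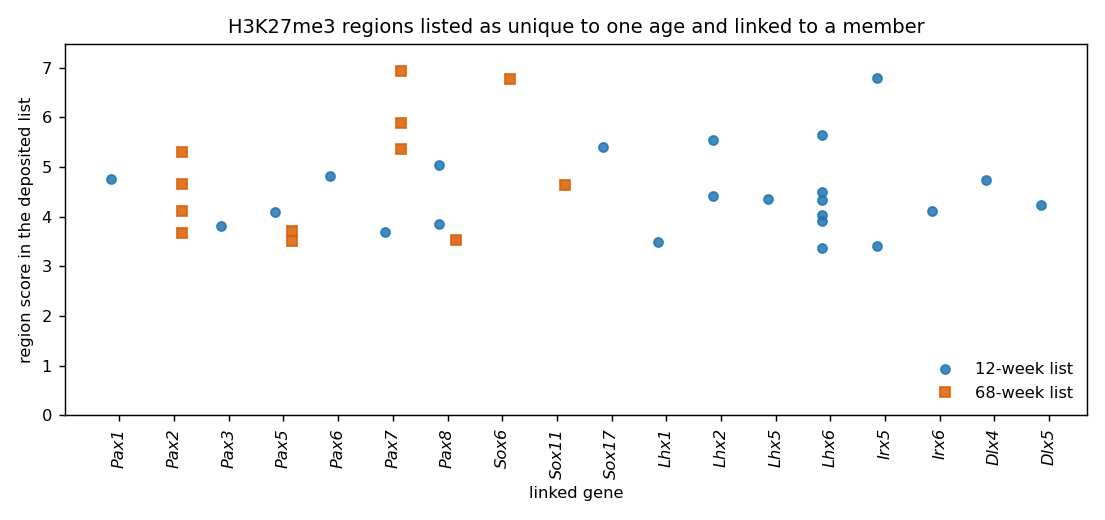
Score in the deposited lists of H3K27me3 regions linked to family genes, with regions of the 12-week list as blue circles and those of the 68-week list as orange squares. Lhx, Irx and Dlx genes carry circles only, and Pax2 has 4 squares and Pax7 has 3.

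Genes linked at 12 weeks alone included Lhx1, Lhx2, Lhx5, Lhx6, Pax1, Pax3, Pax6, Irx5, Irx6, Dlx4, Dlx5 and Sox17. Pax2, Sox6 and Sox11 were linked at 68 weeks alone, Pax5, Pax7 and Pax8 at both, and 38 in neither list. By family, 4 of 8 Lhx genes were linked at 12 weeks and 0 at 68 weeks, and 6 and 4 of 9 Pax genes. These counts go by gene name and leave out antisense and overlapping transcripts. Of those, Pax6os1 had 3 regions, Dlx6os1 2, Sox2ot 2 and Six3os1 1 at 68 weeks, and Irx3os 2 and Dlx4os 1 at 12 weeks. Most linked genes were silent or nearly so: 10 of 28 untested family genes (35.7%) were linked at 12 weeks and 6 of 29 tested ones (20.7%), against 0.872% of all untested and 1.44% of all tested genes. At 68 weeks these were 4 (14.3%) and 2 (6.90%), against 1.90% and 3.46%.

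Several regions lay close together at single genes. Positions are printed as the lists give them, with no build, because 20.6% of 2479 links placed the region on its gene in the mm10 count tables. Of 2035 links with enough linked genes nearby, 18.8% lay on the gene as printed. After a local shift fitted to those neighbours, 84.6% did, and the build was not established. Lhx6, whose RNA was lower on average at 68 weeks, had 6 regions at 12 weeks (chr2:35980282-35993364, scores 3.36 to 5.64). Pax2, the kidney and optic stalk regulator, had 4 at 68 weeks (chr19:44782220-44797660, scores 3.66 to 5.30). Pax7, which marks muscle satellite cells, had 3 at 68 weeks (chr4:139493294-139509396, scores 5.37 to 6.92) and 1 at 12 weeks with a score of 3.70. At the 3 genes in both lists the gap between the regions of the ages was 44.0 kb at Pax7, 39.0 kb at Pax8 and 21.6 kb at Pax5. Each list holds regions called unique to its age, so that they lie apart follows from how the lists were made. It does not show that the mark moved.

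The 10 highest scores among the 36 family regions were those of Pax7 (6.92, 5.88 and 5.37), Sox6 (6.78) and Pax2 (5.30) at 68 weeks and of Irx5 (6.79), Lhx6 (5.64), Lhx2 (5.54), Sox17 (5.39) and Pax8 (5.03) at 12 weeks. Next by gene came Pax6 (4.82) and Pax1 (4.75), both at 12 weeks. Median scores of family regions, 4.35 at 12 weeks and 4.65 at 68 weeks, were close to the list medians of 4.50 and 4.77. At 12 weeks the regions of Sox17, Pax8 and Dlx4 and 1 region of Lhx2 were also linked to another gene model. At 68 weeks both Pax5 regions were also linked to Gm12462. Among tested genes linked at 12 weeks, of which Pax5 alone passed the edgeR test, the log2 fold changes with age were 0.55 for Sox17, 0.07 for Pax6, -0.15 for Irx5, -0.62 for Lhx6 and -2.35 for Pax5. Of the tested genes linked at 68 weeks, Sox6 had -0.09, and Pax5 was in both lists.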

How the data were processed

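The deposited RNA tables hold raw counts for each gene, per the file headers. The submitters' processing notes name the build mm10 and, without roles, STAR 2.5.2b, Trimmomatic 0.36, Subread 1.5.2, featureCounts, DESeq2, MACS3 3.0.0b1, Bowtie2 2.4.2, Trim Galore 0.6.5, Picard 2.26.2 and SAMtools 1.14. The sources used here do not give the strand setting. The authors' deposited region lists give a score per region, with no stated scale, and how replicates were combined and genes linked is not given in the sources used here.

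Age was tested by edgeR 4.0.16 under R 4.3.3 (quasi-likelihood test, TMM normalization, filterByExpr, Benjamini-Hochberg adjustment over 15947 genes, threshold 0.05), with age alone in the model. The script was tested on simulated data. DESeq2 1.42.0 was an alternative. CPM were computed from the normalized library sizes. The SE is the size of the log2 fold change over the square root of F. Rows without a symbol were 174 genes, with 0.0086% to 0.0105% of the counts. Libraries of 1 age differed beyond sampling noise (chi-square per degree of freedom at least 17.4).

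Values per library are given for genes called in the edgeR fit or in an alternative with all 8 libraries, for the 12 highest levels, for genes whose ages do not overlap and for tested genes linked to a region. Sox10, Sox2, Sox21, Pax9 and Six2 were added after their values were seen, and the search for short promoter words was not part of the design written at the start. The families and marker lists were chosen with earlier results of these data known. Promoters came from RefSeq (GRCm38.p6), and 17 genes had no entry. Regions could not be given a sequence. A gene that the rule takes is counted in the totals but is not reported here.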

Additional observations from a re-analysis of the deposited data

Results flagged for a closer look

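In 5 of 56 groups of 4 libraries, 1 library stood apart from the other 3 by Dixon's criterion, which chance alone meets in about 1 in 20 groups. Sox2 (2.29 CPM, others 0.036 to 0.0993), Pax9 (2.35 CPM, others 0.208 to 0.433) and Sox21 (2.29 CPM, others 0 to 0.0298) stood apart in 68-week replicate 3, the older library with 1040 CPM of airway markers. Sox18 was high in 68-week replicate 2 (35.1 CPM, others 29.7 to 30.2). Irx4 was high in 12-week replicate 2 (41.1 CPM, others 34.2 to 35.1).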

How the results depend on the processing

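The number of family genes called by edgeR was 1 and became 0 with a filter of at least 1 CPM in 4 libraries, which leaves out Pax5, with the airway sum as a covariate, and within the 4 libraries with the fewest or the 4 with the most airway counts, where one age has a single library assumed to vary like the others. DESeq2 called 6 of 30 tested, with 3 higher and 3 lower. Leaving out 1 library in turn gave 0 to 3 called, 0 to 2 higher and 0 to 1 lower. The labels do not say whether the replicate numbers pair the samples. Deviations of same-numbered libraries correlated at -0.243, -0.0411, 0.0406 and 0.33, which cannot exclude a shared batch. The replicate block gave 0 family genes, with Pax5 at -2.24 (edgeR adjusted p = 0.0556), and 112 higher and 48 lower over all genes. Over all genes the counts were 256 higher and 195 lower, 564 and 436 with DESeq2, 49 and 9 with the airway covariate, and 176 and 248 when scaled by library size only. Partner genes stayed at 0 called in all settings run. Regions at or above the median score linked 9 family genes at 12 weeks and 3 at 68 weeks, and counting regions in place of genes gave 24 at 12 weeks and 12 at 68 weeks. A level of 1 CPM per kilobase left 16 genes.

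Of 28 tested genes examined singly, 19 kept the sign of their log2 fold change in all 17 alternatives that could be fitted for them. With the airway covariate, signs turned for Irx5 (0.048), Irx2 (0.17), Sox2 (0.38), Sox5 (0.078), Six2 (0.58), Pax9 (0.67), Sox21 (1.74) and Pax6 (-0.17). Among the 4 airway-poorest libraries they turned for Irx5 (0.12), Irx2 (0.25), Sox30 (0.087), Sox21 (1.85) and Pax6 (-0.51), and among the 4 airway-richest for Irx2 (0.043), Sox2 (0.071), Sox5 (0.32), Six2 (0.59), Pax9 (0.89) and Sox21 (1.497). Irx2 also turned without a filter (0.0015) and, with Sox21 (0.0045), in DESeq2 (0.0032). Leaving out 1 library moved Irx2 from -0.10 to 0.13, Sox5 from -0.14 to 0.090, Sox30 from -0.39 to 0.069, Six2 from -0.85 to 0.065, Sox21 from -0.45 to 0.37 and Pax6 from -0.060 to 0.35. The cause was not tested. Pax5 ranged from -2.57 to -2.04 over the libraries left out and was at -1.38 among the 4 airway-poorest libraries. With no filter beyond 10 counts in all, 38 family genes were tested, 11 had an unadjusted p under 0.05 and 1 was called by edgeR. Over all 22261 genes tested in that setting, 3479 (15.6%) had an unadjusted p under 0.05 and 387 were called. The 19 family genes with fewer counts were not compared.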

Other observations

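Antisense and overlapping transcripts of the families, which the gene rule does not take, were linked to regions too. Irx3os had 2 regions and Dlx4os 1 in the 12-week list. Pax6os1 had 3, Dlx6os1 2, Sox2ot 2 and Six3os1 1 in the 68-week list, where Pax6, Sox2, Six3 and the Dlx genes themselves had no link.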
